A study of Mus musculus with 2 samples.

Results

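The mesenchymal cadherins examined here were 5 stromal and neural-crest-related cadherins (Cdh2, Cdh11, Cdh13, Cdh15 and Cdh19), the endothelial cadherin Cdh5 that was set against them, and the catenins Ctnnb1 and Ctnna1. These 8 genes were found by symbol among the 21849 genes of the count tables. Costal cartilage-derived stem cells (CDSCs) were profiled by single-cell RNA sequencing in 1 primary and 1 cultured library, and the comparison asks how the cells change in culture. Primary CDSCs came from digested rib cartilage of newborn C57BL/6J mice, either CD45.1 or ZsGreen, and were CD45- CD51+, and cultured CDSCs were such cells grown in MEM with serum and taken at passages 2 to 3. The labels name bone marrow as the tissue of both libraries, whereas the study's methods describe rib cartilage. The number of animals behind each library was not given in the sources used here, so every comparison below is between 2 libraries and not between replicated conditions.

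Cadherins are membrane proteins whose extracellular repeats bind cadherins on a neighbouring cell in a calcium-dependent manner. The cytoplasmic tail of a classical cadherin binds β-catenin (Ctnnb1), which recruits α-catenin (Ctnna1) and through it the actin cytoskeleton, and β-catenin outside the junction serves as the transcriptional effector of Wnt signalling. N-cadherin (Cdh2) and cadherin-11 (Cdh11, OB-cadherin) are typical of mesenchymal cells and osteoblasts, M-cadherin (Cdh15) of skeletal muscle precursors, and cadherin-19 (Cdh19) of the neural crest and Schwann cell lineage. VE-cadherin (Cdh5) forms the endothelial adherens junction. T-cadherin (Cdh13) is held in the membrane by a lipid anchor, lacks a cytoplasmic tail and is found in endothelium and other vascular cells.

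The coding ends of 4 cadherins are shown because they carry the tail that ties these proteins to the catenins, and because they separate Cdh13 from the rest. The most alike in-frame stretch of 45 bases near the coding ends was read from GENCODE M21 transcripts (GRCm38), 5′ to 3′ on the coding strand, with the 22 bases shared by all 4 genes in capitals.
Cdh11: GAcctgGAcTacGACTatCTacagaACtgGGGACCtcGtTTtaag
Cdh5: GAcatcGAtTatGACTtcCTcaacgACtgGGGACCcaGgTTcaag
Cdh15: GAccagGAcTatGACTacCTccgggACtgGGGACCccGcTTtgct
Cdh19: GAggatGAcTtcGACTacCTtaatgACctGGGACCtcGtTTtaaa
Each stretch lies in the last exon of its gene, within coding sequence. For Cdh11 it is at chr8:102634365-102634409 on the minus strand, for Cdh5 at chr8:104142903-104142947 on the plus strand, for Cdh15 at chr8:122866949-122866993 on the plus strand, and for Cdh19 at chr1:110889743-110889787 on the minus strand. Cdh5 shares 31 of the 45 bases with Cdh11, Cdh15 shares 34 and Cdh19 shares 32. In the whole reading frame of Cdh13 the best in-frame match to the Cdh11 stretch had 21 of 45 bases, so no counterpart as close was found there. The reading frame of Cdh13 is also the shortest of these 5, with 714 codons before the stop against 796 in Cdh11, 784 in Cdh5, 784 in Cdh15 and 770 in Cdh19. Of the 28 pairs among the 8 genes, only Cdh13 and Cdh19 share any stretch of 30 bases in their transcripts, on either strand. They share 6 such windows, with overlapping windows and both strands counted separately, and the other pairs share none.

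After the cell filter (at least 500 genes, at least 1000 unique molecular identifiers, or UMIs, and at most 10% mitochondrial UMIs), 11746 primary and 5338 cultured cells remained, with 137148874 and 330129909 UMIs. The median depth was 10026.5 UMIs per primary cell and 56864.5 UMIs per cultured cell, so shares of cells were compared after thinning every cell to 5000 UMIs. The filter left out 50.6% of the cultured barcodes, nearly all for low depth. The libraries had 32 barcodes in common, 15 of them among the kept cells. Of the cartilage genes, Col2a1 was at 53269 CPM in primary and 489.8 CPM in cultured cells, and Sox9 at 1308 and 81.2 CPM. Of the sort markers, Itgav (CD51) was at 92.5 and 109.2 CPM and Ptprc (CD45) at 0.620 and 0.345 CPM.

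Cdh11 was the most abundant of the 6 cadherins in both libraries, and Cdh2 and Cdh11 were far higher in the cultured library, while Cdh5 was nearly confined to the primary one. Levels are given as CPM, the UMIs of a gene scaled to a fixed total per library, with exact 95% Poisson intervals, which cover counting error only. A 3′ UMI counts a transcript and not its length, so no length correction was made. Whether reads within introns were counted was not stated in the sources used here. The gene spans differ widely, so rankings between genes carry that limit. Among the 7 members that reached 1 CPM in a library, 2, Cdh2 and Cdh11, were at least 4-fold higher in the cultured cells, against 12.6% of the 12839 genes at that level. One member, Cdh5, was at least 4-fold lower, against 7.48% of those genes. The median log2 ratio of cultured over primary was 0.99 over the 7 members and 0.36 over the 12839 genes. With TMM scaling in place of total UMIs the latter median was 0.16, and all 8 members kept their direction.

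**Figure D1:**
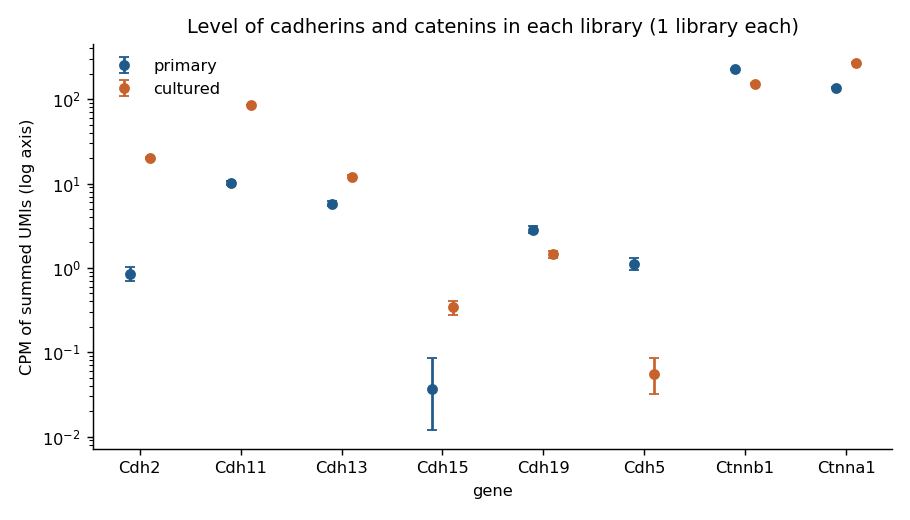
Level of each gene in the primary (blue) and cultured (orange) library, in CPM of summed UMIs on a log axis, with exact 95% Poisson intervals that cover counting error. Cdh2, Cdh11, Cdh13, Cdh15 and Ctnna1 lie higher in the cultured library, whereas Cdh19, Cdh5 and Ctnnb1 lie lower.

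Cdh2, which joins mesenchymal, neural and muscle cells, had 117 UMIs in the primary library (0.853 CPM, 0.706 to 1.02) and 6602 in the cultured library (19.998 CPM, 19.5 to 20.5). The log2 ratio was 4.55 with an exact counting interval of 4.29 to 4.83, the largest of the 8 members. The gene lies at chr18:16588877-16809246 on the minus strand of GRCm38.

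Cdh11, the cadherin of osteoblasts and connective tissue, had 1398 UMIs in the primary library (10.2 CPM, 9.67 to 10.7) and 28180 in the cultured library (85.4 CPM, 84.4 to 86.4). Its log2 ratio was 3.07 (2.99 to 3.14), which is an 8.37-fold higher level in the cultured library. Cdh13 was at 5.74 CPM in the primary library (787 UMIs, 5.34 to 6.15) and at 12.1 CPM in the cultured library (3988 UMIs, 11.7 to 12.5), a log2 ratio of 1.07 (0.96 to 1.19). Its gene is the longest of the 8 and spans chr8:118283733-119324921 on the plus strand. The ratio of Cdh13 was thus the smallest among the stromal cadherins that were higher in culture.

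Cdh15, the muscle cadherin, was near the detection limit in the primary library, with 5 UMIs (0.0365 CPM) against 112 in the cultured library (0.339 CPM). Its log2 ratio of 3.22 had a wide counting interval of 1.95 to 4.87, and both levels were under 1 CPM, so Cdh15 was not among the 7 members counted above. Cdh19 went the other way, with 390 UMIs in the primary library (2.84 CPM, 2.57 to 3.14) and 476 in the cultured library (1.44 CPM, 1.32 to 1.58), a log2 ratio of -0.98 (-1.18 to -0.78). Cdh5, the endothelial cadherin, had 152 UMIs in the primary library (1.11 CPM, 0.939 to 1.30) and 18 in the cultured library (0.0545 CPM, 0.0323 to 0.0862). Its level was 20.3-fold higher in the primary library, a log2 ratio of -4.35 (-5.14 to -3.64).

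In the make-up of the cadherins, Cdh11, Cdh2 and Cdh15 took larger shares in the cultured library, and Cdh13, Cdh19 and Cdh5 smaller ones. Of the 2849 UMIs that the 6 cadherins had in the primary library, Cdh11 took 49.1%, Cdh13 27.6%, Cdh19 13.7%, Cdh5 5.34%, Cdh2 4.11% and Cdh15 0.176%. Of the 39376 in the cultured library, Cdh11 took 71.6%, Cdh2 16.8%, Cdh13 10.1%, Cdh19 1.21%, Cdh15 0.284% and Cdh5 0.0457%. Cdh2 thus ranked below Cdh5 in the primary library and next to Cdh11 in the cultured one, where Cdh5 ranked last.

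The catenins were more than 10 times as abundant as any of the 6 cadherins in the primary library, and the 2 went in opposite directions. Ctnnb1, at chr9:120929216-120960507 on the plus strand, was at 226.8 CPM in the primary library (224.3 to 229.3) and at 152.7 CPM in the cultured library (151.4 to 154.0), a log2 ratio of -0.57 (-0.59 to -0.55). Ctnna1, at chr18:35118859-35254779 on the plus strand, was at 137.0 CPM in the primary library (135.1 to 139.0) and at 271.3 CPM in the cultured library (269.5 to 273.1), a log2 ratio of 0.99 (0.96 to 1.01). Ctnnb1 was therefore the more abundant catenin in the primary library and Ctnna1 in the cultured one. Per cell and unscaled, both were higher in the deeper cultured library, Ctnnb1 with 9.44 UMIs per cell against 2.65 and Ctnna1 with 16.8 against 1.60. Ulk4 overlaps Ctnnb1 on the opposite strand (7.51 CPM primary, 9.41 CPM cultured), and Lrrtm2 overlaps Ctnna1 on the opposite strand (0.153 and 1.10 CPM). Whether the counting used strand was not stated, and both neighbours were low beside the catenins.

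The share of cells with a UMI followed the levels once depth was made equal. At 5000 UMIs per cell, with 10959 primary and 4543 cultured cells, Cdh11 was detected in 3.09% of primary cells (exact binomial 95% interval 2.78 to 3.43) and 28.5% of cultured cells. Cdh2 was detected in 0.356% and 6.89%, and Cdh13 in 1.12% and 4.23%. Hence even in culture most cells showed no Cdh2 or Cdh13 at this depth. Cdh19 was detected in 1.20% and 0.924% of cells, and Cdh15 in 0.00912% and 0.198%. Without the cells of highest doublet score the cultured shares were 0.464% for Cdh19 and 0.0977% for Cdh15. These rest on 19 and 4 of 4093 cells, against 42 and 9 of 4543, and on a new random draw of UMIs. The log2 ratios of summed UMIs without those cells were -0.98 for Cdh19 and 3.59 for Cdh15. Whether doublets account for the smaller shares was not tested.

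Cdh5 was detected in 0.201% of primary cells (0.126 to 0.304) and in 0 of 4543 cultured cells, which allows a share of up to 0.0660% by the limit of 3 cells. The exact binomial upper bound was 0.0812%. Ctnnb1 was detected in 66.6% of primary and 51.6% of cultured cells, and Ctnna1 in 44.7% and 70.8%. Without thinning, 7 of the 8 genes had the higher share in the cultured library, Cdh19 and Ctnnb1 included, with Cdh5 as the exception. The unthinned shares were 6.34% and 63.9% for Cdh11, 0.775% and 32.0% for Cdh2, 2.72% and 4.14% for Cdh19, 85.8% and 87.2% for Ctnnb1, and 0.417% and 0.300% for Cdh5.

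**Figure D2:**
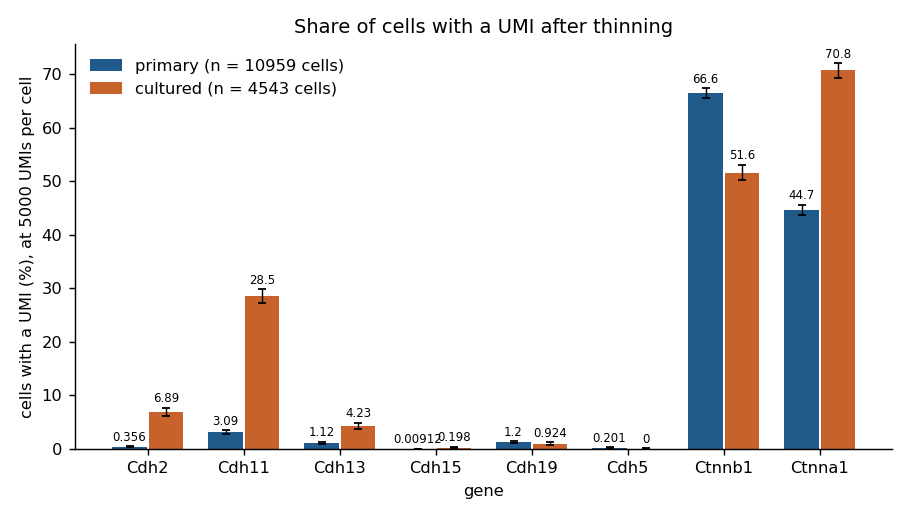
Percentage of cells in which each gene was detected after thinning each cell to 5000 UMIs, for 10959 primary (blue) and 4543 cultured (orange) cells, with exact binomial 95% intervals. Cdh11 stands at 28.5% of cultured cells against 3.09% of primary cells, and Cdh5 at 0 cultured cells.

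Within the primary library much of the Cdh11, Cdh2, Cdh13 and Cdh5 signal came from small groups of cells. Clustering without any cadherin or catenin gene gave 17 clusters and sub-clusters, of which 7 were chondrocyte-like and held most cells. A cluster of 1470 cells with Acta2, Grem1 and Eln among its leading genes stayed unnamed, with Col2a1 at 70577 CPM and Sox9 at 1457 CPM. The sub-clusters of a cluster called c6 held the stromal and vascular cells. Of these 287 cells, 131 in 3 sub-clusters were mesenchymal fibroblast-like, 23 were smooth muscle and pericyte-like, and 26 formed the sub-cluster c6.5 described below. The remaining sub-clusters stayed unnamed. Tendon markers were found along with mesenchymal ones in the fibroblast-like sub-clusters too, where Tnmd stood at 1709 to 3048 CPM. Col2a1, the main cartilage collagen, was at 1924 to 2764 CPM in c6.0, c6.1, c6.3 and c6.4, at 26171 CPM in c6.5, and at 35348 to 51293 CPM in c6.2, c6.6, c6.7 and c6.8, against 36315 CPM in the largest chondrocyte-like cluster, and its part in the results below was not tested.

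Cdh11 and Cdh2 were concentrated in c6 outside c6.5. These 261 cells, 2.22% of the library, held 676 of the 1398 Cdh11 UMIs (48.4%, 45.7 to 51.0) at 294.6 CPM, against 5.36 CPM in the 11459 cells outside c6. They held 64 of the 117 Cdh2 UMIs (54.7%, 45.2 to 63.9) at 27.9 CPM, against 0.394 CPM outside c6. The levels differed between the sub-clusters, with Cdh2 at 4.59 CPM in c6.2 and 9.73 CPM in c6.8, and Cdh11 at 58.4 CPM in c6.8, its lowest level in c6 outside c6.5. The highest Cdh11 level was 699.6 CPM in c6.3, a mesenchymal fibroblast-like sub-cluster of 42 cells led by Kera, Igfbp5 and Col1a1. The highest Cdh2 level was 131.4 CPM in c6.1, 44 cells led by Chodl, Cilp and Insc, where Cdh13 had 0 UMIs and Cdh11 stood at 377.8 CPM.

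At 5000 UMIs per cell, Cdh11 was detected in 36 of 40 cells (90.0%) of the fibroblast-like sub-cluster c6.0. In c6.5, where 25 of the 26 cells carried at least 5 endothelial markers and Cdh11 should be lacking, 1 of 18 thinned cells (5.56%, 0.141 to 27.3) had a Cdh11 UMI. Before thinning, these cells had a median of 13221 UMIs in c6.5 and 7011 in c6.0. The 3.09% over all primary cells lies within that interval, and 18 cells are too few to set a background share. Whether the low share of Cdh11 in the chondrocyte-like clusters is expression was not tested. Leaving out the c6 sub-clusters raised the log2 ratio of Cdh2 to 5.67 and that of Cdh11 to 3.99.

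Most of the Cdh5 UMIs, though only 23 of the 49 primary cells with a Cdh5 UMI, were in c6.5. That sub-cluster, 0.221% of the primary cells, held 124 of the 152 Cdh5 UMIs (81.6%, 74.5 to 87.4) at 423.1 CPM, against 0.201 CPM outside c6. It also held 417 of the 787 Cdh13 UMIs (53.0%, 49.4 to 56.5) at 1423 CPM, the highest level of any of the 6 cadherins in any cluster. Cdh2 had 0 UMIs there and Cdh11 had 1. The leading genes of c6.5 were mast cell proteases (Tpsb2, Cma1, Mcpt4) along with vascular genes (Gpihbp1, Myct1, Sox17, Robo4), so it stayed unnamed, and 1 of its cells carried all 6 mast cell markers.

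**Figure D3:**
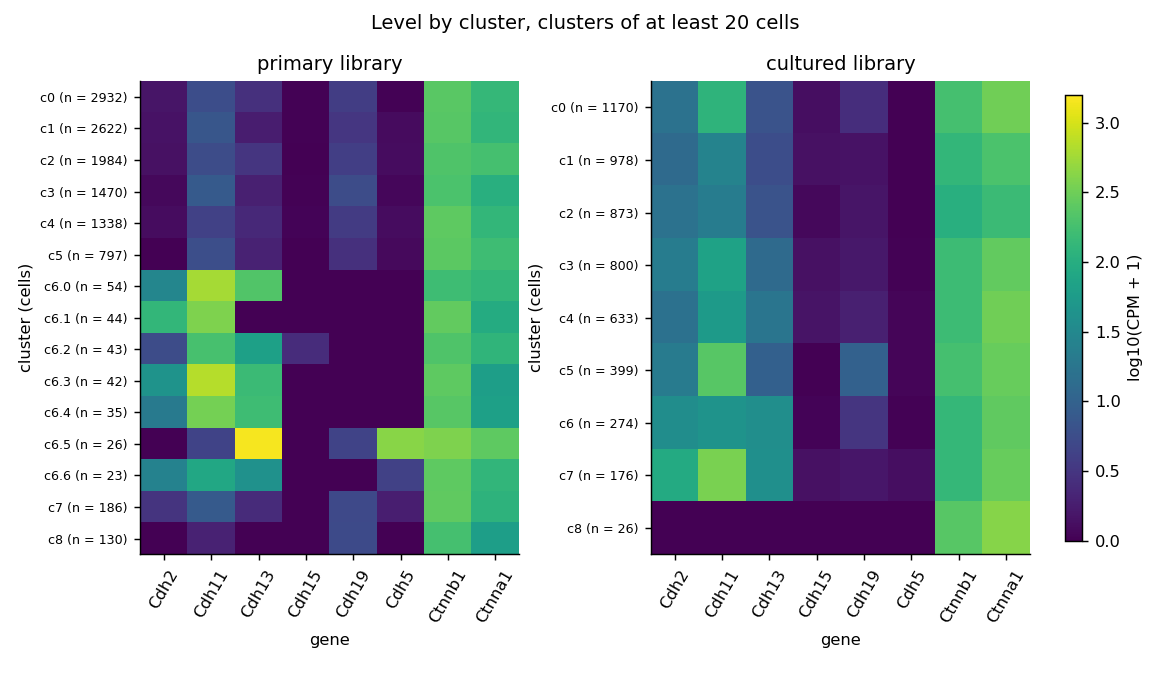
Level of each gene, as log10(CPM + 1) in colour, in every cluster of at least 20 cells of the primary and the cultured library, with the number of cells beside each cluster name. In the primary library Cdh11 is bright in the c6 sub-clusters other than c6.5, and Cdh13 and Cdh5 are bright in c6.5, while in the cultured library Cdh11 and Cdh2 are brightest in c7.

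Counting endothelial markers in each cell placed Cdh5 without clustering. The list held 12 markers of endothelium, such as Pecam1, Kdr, Tie1, Emcn and Cldn5, and no cadherin. A total of 26 primary cells had at least 5 of them, 25 of which were in c6.5, and Cdh5 was detected in 23 of these 26 cells (88.5%, median 10427.5 UMIs per cell). Among the 6822 primary cells with 1 marker it was detected in 16 (0.235%, median 10221 UMIs per cell). The 102 cells with 3 markers and the 4 cells with 4 markers had 0 Cdh5 UMIs. The limit of 5 was chosen after the values were seen, since Erg, 1 of the markers, was detected in 7591 primary cells. At the planned limit of 3 or more markers, Cdh5 was detected in 23 of 132 primary cells (17.4%).

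Cdh13 accompanied Cdh5 in the same cells. Cdh13 was detected in 24 of the 26 cells and both genes in 23. Per cell, Cdh13 ranged from 0 to 60 UMIs with a median of 13, and Cdh5 from 0 to 25 with a median of 3.5. Cdh2 had 0 UMIs in the 26 cells and Cdh11 had 4. Without the 26 cells, and the 3 cultured cells with as many markers, Cdh13 in the primary library was at 2.70 CPM and its log2 ratio became 2.16, which is 4.46-fold and past the 4-fold limit. Cdh5 then kept 28 primary UMIs (0.205 CPM) and a log2 ratio of -1.91 (-2.85 to -1.001).

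**Figure D4:**
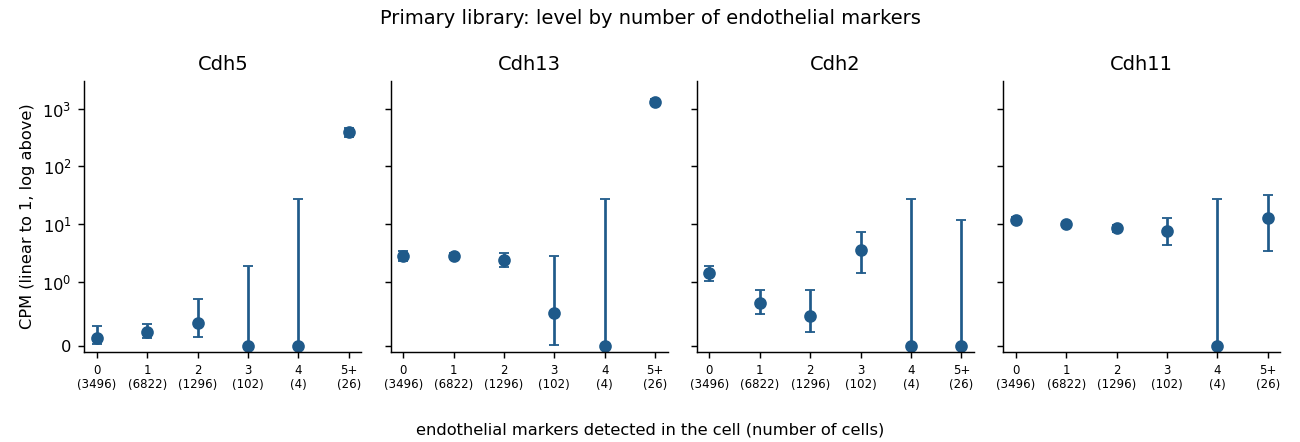
Level of Cdh5, Cdh13, Cdh2 and Cdh11 in primary cells grouped by how many of 12 endothelial markers were detected in the cell, in CPM (linear to 1, log above) with exact 95% Poisson intervals, and the number of cells under each group. Cdh5 and Cdh13 reach 391.6 and 1317 CPM in the 26 cells with 5 or more markers, where Cdh2 is at 0 and Cdh11 at 12.6 CPM.

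In the cultured library Cdh5 had no such place. Its 18 UMIs were in 16 cells spread over 7 clusters, at most 0.322 CPM in a cluster, and the 3 cells with at least 5 endothelial markers had 0 Cdh5 UMIs. The lowest of the listed endothelial markers were Tie1 with 0 UMIs in the cultured library, Cldn5 in 1 cell and Emcn in 4 of 5338. Egfl7 and Eng, by contrast, were detected in 2008 and 2501 cultured cells, Erg in 653 and Plvap in 311. Pecam1, Kdr, Flt1, Tek and Esam were each detected in 35 to 75 cultured cells. Summed levels alone cannot tell fewer cells of a kind from less RNA per cell. Counted per cell, 26 of 11746 primary and 3 of 5338 cultured cells had at least 5 endothelial markers. No cultured cluster was named endothelial-like, and the reason for the difference was not tested.

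Among cultured clusters Cdh11 and Cdh2 varied widely and peaked in the same cluster. This was c7, 176 cells with Ptn and Thy1 among their leading genes, with Cdh11 at 355.3 CPM (344.9 to 365.9), Cdh2 at 88.6 CPM (83.4 to 93.9) and Cdh13 at 38.7 CPM (35.3 to 42.3). It was 3.30% of the cells and held 16.7% of the Cdh2 UMIs and 15.7% of the Cdh11 UMIs. At 5000 UMIs per cell, 70.5% of its cells showed Cdh11 and 28.4% showed Cdh2. The genes parted elsewhere.

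Cluster c5, 399 cells led by Mmp13 with Comp and Fap, had Cdh11 at 229.5 CPM but Cdh2 at 20.4 CPM. Cluster c6, 274 cells led by Nr5a2 and Barx1, had Cdh2 at 36.4 CPM and Cdh13 at 36.8 CPM but Cdh11 at 43.0 CPM. The dividing cells of c3, led by Aspm and Pbk, were close to the library level with Cdh11 at 69.2 CPM and Cdh2 at 20.8 CPM. The lowest Cdh11 levels among large clusters were 25.9 CPM in c1 and 20.8 CPM in c2, the latter a cluster of shallow cells with a median of 1285 UMIs. The 9 haematopoietic-like cells, which should lack Cdh11, had 13 Cdh11 UMIs (32.1 CPM, 17.1 to 54.8) and 2 Cdh2 UMIs (4.93 CPM). The Cdh11 levels of c1 and c2 lay within that interval, but 9 cells are too few to set a background level. Whether the Cdh11 UMIs of c1 and c2 reflect expression was not tested.

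Cdh2 and Cdh11 were found together in primary cells and nearly independently in cultured cells. At 5000 UMIs per cell, 28.2% of primary cells with a Cdh2 UMI also had Cdh11 (11 of 39 cells, 15.0 to 44.9), against 3.004% of the others. In the cultured library 30.03% of cells with a Cdh2 UMI had Cdh11 (25.0 to 35.4), against 28.4% of the others. For Cdh13 and Cdh11 the shares were 28.5% against 2.81% in the primary and 37.0% against 28.2% in the cultured library. Cdh13 was in 45.5% of primary cells with a Cdh5 UMI (10 of 22, 24.4 to 67.8) and in 1.03% of the others. Cdh11 was in 9.09% of primary cells with a Cdh5 UMI (2 of 22, 1.12 to 29.2) and in 3.08% of the others. No thinned cell had Cdh5 with Cdh2, but 22 and 39 primary cells are too few to read that count.

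Cdh19 was the only cadherin of the 6 that was spread over the large primary clusters and had 0 UMIs in c6 outside c6.5. It had 389 of its 390 UMIs outside c6, at 1.80 to 4.53 CPM per cluster. In the 261 cells of c6 outside c6.5 the counting interval reached 1.61 CPM, but some of these sub-clusters had Col2a1 at chondrocyte level. In c6.0, c6.1, c6.3 and c6.4, where Col2a1 was low, the interval of each reached 10.4 to 23.8 CPM. Each of those 4 alone therefore cannot tell absence of Cdh19 from its level in the large clusters. The highest level, 4.53 CPM, was in the unnamed cluster with Acta2 and Grem1 among its leading genes. There Acta2 stood at 367.7 CPM and the cartilage collagen Col2a1 at 70577 CPM. Cells with several Schwann cell markers were rare in the primary library, where none had 4 or more of the 8. In the cultured library 171 of the 476 Cdh19 UMIs (35.9%) were in c5, at 8.89 CPM, while the other clusters of at least 100 cells had at most 2.13 CPM. Of the remainder, 28 UMIs were in 2 cells with at least 5 Schwann markers, with 6 and 22 UMIs, and these cells also had 35 Cdh2 UMIs.

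Too few cells carried muscle markers to place Cdh15 beside them, since 1 cultured and 0 primary cells had 3 or more of the 8 skeletal muscle markers. Of its 112 cultured UMIs, 105 were in the 5148 of 5338 cells with none of them, and the cluster levels lay between 0 and 0.459 CPM. Myf5 had 0 UMIs in both libraries, and Pax7 had 7 primary UMIs and 1 cultured UMI. The catenins, in turn, varied less between clusters than the cadherins did. Over the primary clusters Ctnnb1 ranged from 160.0 to 375.3 CPM and Ctnna1 from 60.5 to 255.9 CPM, both highest in c6.5.

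How the UMIs were divided among cells set the cadherins apart from the catenins as well. The 53 cultured cells with the most UMIs of a gene, the top 1%, held 25.9% of the Cdh2 UMIs, 14.2% of the Cdh11 UMIs, 35.1% of the Cdh13 UMIs and 58.2% of the Cdh19 UMIs. For Ctnnb1 and Ctnna1 they held 3.99% and 4.43%. The highest count in a single cultured cell was 176 for Cdh13, 153 for Cdh11 and 112 for Cdh2. A few cells of very high count therefore carried much of the Cdh13 and Cdh19 totals, and whether doublets were among them was not tested.

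Genes with the pattern most like each member were sought over the 17 clusters of at least 50 cells, by Pearson's r of log2(CPM + 1), as a description over clusters that share their library and depth. For Cdh2 they were Fhl1 (r = 0.97), Twist1, Fstl1, Rab3ip and Trim16. For Cdh11 they were Sntb1 (r = 0.97), Igf1, Acvrl1, Aqp1 and Kctd12, and for Cdh13 Cd55 (r = 0.95), AW551984, Col5a1 and Esyt1. For Cdh19 they were Epas1 (r = 0.89), Crybg3, Il1rapl1, Dhrs3 and Pank1. For Ctnnb1 they were Cpsf6 (r = 0.98), Gabpb1, Usp36, Fbxo7 and Mief1, and for Ctnna1 Pdcd6ip (r = 0.96), Dnaja2, Klc1 and Dld. Cdh15 and Cdh5 did not exceed 0.459 and 0.877 CPM in these clusters, and their closest genes, Fez1 (r = 0.86) and St8sia2 (r = 0.80), rest on few UMIs.

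The other genes of the adhesion machinery were read from lists, with the same 4-fold limit and 1 CPM level. Each count is to be read beside the 12.6% of all genes that were higher and the 7.48% that were lower. Of 10 classical cadherins at that level, 3 were higher in the cultured library, namely Cdh2, Cdh11 and Cdh18 (1.74 CPM primary, 10.5 CPM cultured), and 1 was lower, Cdh5, with a list median of 0.67 on the log2 scale. E-cadherin (Cdh1) was under 1 CPM in both. Of 18 catenins and linkers of cadherins to actin, 6 were higher and 0 lower, with a median of 1.27. They included the actin cross-linker Actn1 (59.96 and 612.1 CPM), zyxin (Zyx, 74.0 and 463.0 CPM) and Tjp1 (31.7 and 161.2 CPM), whereas vinculin (Vcl) was at 348.4 and 372.2 CPM.

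Of 5 nectin genes, their linker afadin included, 4 were higher and 0 lower, with a median of 2.49, among them Nectin2 (0.875 and 38.5 CPM) and Afdn (24.8 and 109.3 CPM). Of 8 protocadherins, 3 were higher and 0 lower, with a median of 1.52. Pcdh7 differed most, with 2.28 and 685.8 CPM, and Pcdh19 stood at 0.962 and 48.8 CPM. Of 12 other members of the cadherin superfamily, 2 were higher (16.7%, near the 12.6% of all genes), the giant cadherins Fat1 (39.99 and 245.7 CPM) and Fat4 (7.71 and 115.6 CPM). In that list 4 were lower (6 with TMM scaling), among them Dchs1, the ligand of Fat4 (13.1 and 2.39 CPM), and Ret (11.2 and 1.25 CPM), and the median was -1.45.

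Of 4 desmosomal genes at 1 CPM, 1 was higher and 2 lower, with a median of -2.18. The factors that drive the switch from E-cadherin to N-cadherin were mixed, with 3 of 8 higher, 0 lower and a median of 0.98. Those higher were Zeb2 (1.72 and 221.5 CPM), Twist1 (6.803 and 50.9 CPM) and Twist2 (3.70 and 27.0 CPM), while Snai1 stood at 73.3 and 18.8 CPM. Of 11 proteases that cut cadherins, 2 were higher (18.2%, near the 12.6% of all genes) and 0 lower, with a median of 1.05, among them Adam15 (6.62 and 43.0 CPM), and Adam10, a sheddase of N-cadherin, was at 27.7 and 79.4 CPM.

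Of 12 Wnt target genes, which β-catenin can activate, 1 was higher (8.33%, against 12.6% of all genes) and 3 lower (against 7.48% of all genes), with a median of -0.87. The cell cycle gene Ccnd1 stood at 11.6 CPM in primary and 367.8 CPM in cultured cells. Lef1 (26.2 and 1.55 CPM), Myc (140.0 and 24.9 CPM) and Notum (9.84 and 0.666 CPM) were lower. Axin2, a widely used readout of Wnt signalling, was at 3.33 and 4.17 CPM.

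**Figure D5:**
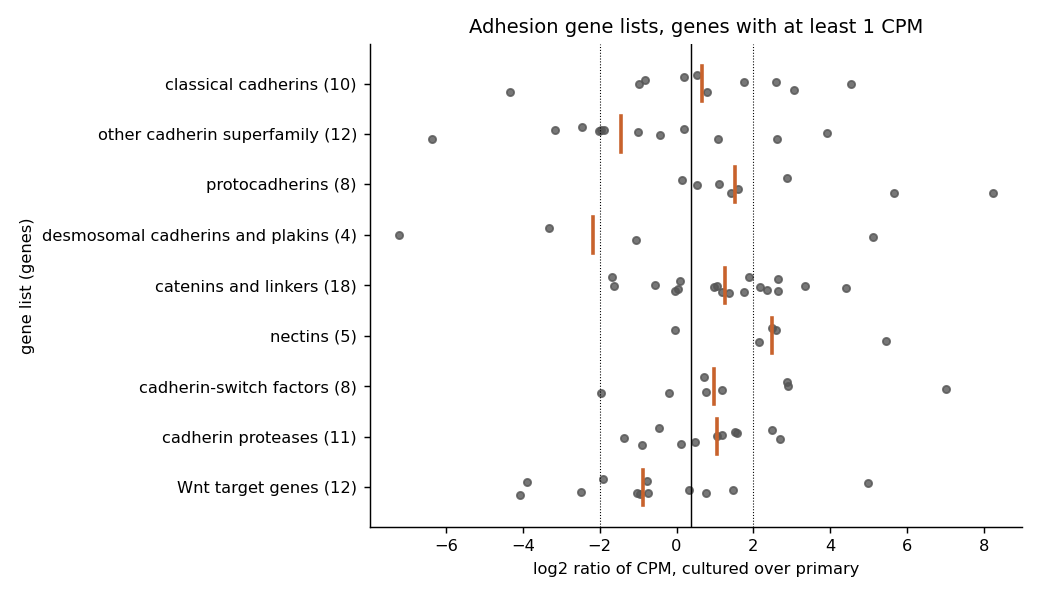
Log2 ratio of CPM, cultured over primary, for the genes of each adhesion list with at least 1 CPM in either library (grey points), with the list median (orange bar), the median of all 12839 genes at 0.36 (solid line) and the 4-fold limits (dotted lines). The medians of nectins, protocadherins and catenins lie to the right of the median of all genes, and those of desmosomal genes, other cadherins and Wnt targets lie to the left.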

How the data were processed

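The authors deposited 1 matrix of UMI counts for each library, which held whole numbers and had not been normalised. Per the labels, the authors used Cell Ranger 7.0.0 on libraries of the 10x 3′ v3.1 kit, and the study's methods name GRCm38. The labels list other builds too, and the annotation release was not stated. Coordinates and transcripts came from GENCODE M21 (GRCm38).

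Kept cells were those with 500 genes or more, 1000 UMIs or more and a mitochondrial share of 10% or less. Their counts were summed and scaled to CPM, and log2 ratios were taken as cultured over primary, with counts under 3 raised to 3. Intervals are exact, at 95%, and cover counting error only. No test was made, since each group was 1 library and cells were not treated as replicates. A share of 0 allows up to 3 cells of the total. Sums of 137148874 and 330129909 UMIs made counting error small except for Cdh15 and Cdh5.

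Each library was clustered alone (scanpy 1.11.5, leidenalg 0.10.2) on 2000 variable genes, 10 components and 20 neighbours at resolution 0.5, after 142 cadherin and catenin genes had been left out, and a mixed cluster was clustered again. A cluster was named from at least 3 markers of 1 class, at 50 CPM or more and with a 4-fold excess over the other cells. That class needed the most such markers and at least 1 marker among the 10 leading genes. No other class could have more there. A cluster without 3 such markers of any class was chondrocyte-like from 3 chondrocyte markers of at least 1000 CPM. Leading genes of another class prevented this, as Acta2 did in the unnamed cluster of 1470 cells. Shallow clusters could also stay unnamed. Scrublet called 0 primary and 1 cultured doublets and had therefore not worked, so doublets were kept, and the highest scores (1118 and 461 cells) were left out as an alternative. Calculations were tested on simulated data.

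The 8 members and the lists were chosen with earlier results of these data known. All 8 members were named, list genes could be named with at least 10 CPM in either library, and the 5 genes most like each member were taken by correlation over clusters, of which some are not reported here. Cdh1, Axin2, Notum, Ulk4, Lrrtm2, the genes that check the sort and tissue, the lineage markers and the leading genes of clusters were singled out after their values were seen. Alternatives were other cell filters, doublets left out, TMM scaling (edgeR 4.0.16), equal weight per cell, other CPM and fold limits, other thinning depths, other cluster settings and cell groups left out.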

Additional observations from a re-analysis of the deposited data

Results flagged for a closer look

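Barcodes left out by the cell filter held UMIs of the members above the 3 counts that a count of 0 allows. In the 5460 cultured barcodes left out (median 775 UMIs) there were 341 Cdh2 UMIs, 579 Cdh11 UMIs, 80 Cdh13 UMIs, 28 Cdh19 UMIs, 1025 Ctnnb1 UMIs and 2443 Ctnna1 UMIs, while Cdh15 and Cdh5 had 0. As levels, Cdh2 was at 54.1 CPM there against 19.998 CPM in the kept cells, Cdh19 at 4.45 against 1.44 CPM and Ctnna1 at 387.9 against 271.3 CPM. Cdh11 (91.9 against 85.4 CPM), Cdh13 (12.7 against 12.1 CPM) and Ctnnb1 (162.7 against 152.7 CPM) were closer to the kept cells.

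In the 150 primary barcodes left out there were 15 Cdh13 UMIs, 27 Ctnnb1 UMIs and 52 Ctnna1 UMIs. Cdh13 was at 71.4 CPM there (39.95 to 117.7) against 5.74 CPM in the kept cells, and Ctnna1 at 247.5 against 137.0 CPM. What these barcodes hold was not tested.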

How the results depend on the processing

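All 8 members kept their direction in each of 11 alternatives. The log2 ratio ranged from 3.82 to 5.67 for Cdh2, 2.86 to 3.99 for Cdh11, 0.49 to 3.17 for Cdh13, 3.02 to 3.59 for Cdh15, -1.18 to -0.61 for Cdh19, -5.19 to -1.88 for Cdh5, -0.77 to -0.47 for Ctnnb1 and 0.79 to 1.06 for Ctnna1. The value nearest 0 for Cdh13 came with each cell weighing the same, and the values farthest from the main one for Cdh13 and Cdh5 came without the c6 sub-clusters. With a limit of 10 CPM, 966 genes were higher and 522 lower, and with a 2-fold limit 3716 and 1936. The share of primary Cdh11 UMIs in mesenchymal fibroblast-like clusters was 29.0%, and 19.2% at resolution 1.0 and 33.7% with 30 components. At both settings the 25 cells of c6.5 with at least 5 endothelial markers formed a cluster of their own, then endothelial-like. With a limit of 10 CPM the lower classical cadherins numbered 0, lower genes of the other cadherin superfamily 2, desmosomal genes 0 higher and 0 lower, and higher proteases 1, by construction from fewer genes. With TMM scaling 1 cadherin-switch factor, Snai1, was lower, 6 other cadherins and 4 Wnt targets were lower, and 5 catenins and linkers and 3 nectin genes were higher. Depth limits Cdh15 and Cdh5 most. No paired analysis was possible because each group has 1 library and no result comes from a test.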
